A study of Danio rerio with 72 samples.

Results

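The data describe 3 zebrafish genes that encode neuropeptides of the reproductive axis: npvf (ENSDARG00000036227), kiss1 (ENSDARG00000075829) and tac3a (ENSDARG00000093089). They were picked by name from a count table of 31902 entries because their counts were already known to vary with tissue, drug or stress. Their levels and fold changes are therefore given as a description, with standard errors and with no p-value. Adjusted p-values are given only for other genes of the same signalling systems.

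The libraries came from SR4G zebrafish, a reporter line in which a short-lived green fluorescent protein is driven by glucocorticoid response elements, and every group carried this reporter. Fish were exposed from fertilisation to 6 days after it (0 to 6 dpf) to fluoxetine, a selective serotonin reuptake inhibitor, at 54 µg/L, or to the ethanol vehicle at 0.0053%. Each exposure was split into unstressed and stressed fish, and RNA was taken from larval heads at 6 dpf (22 heads in a pool) or from the hypothalamus and the telencephalon of adults at 6 months (5 fish in a pool). The 3 tissues, 2 exposures and 2 stress states gave 12 groups of 6 libraries, 72 in all. The sources used here name neither the stressor nor when fish were sampled after it, and the labels do not say whether the 6 pools of a group were raised apart. Nor do the labels say whether hypothalamus and telencephalon pools came from the same fish. Comparisons of these regions treated the pools as independent.

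The npvf gene encodes the precursor of RFamide peptides that are called gonadotropin-inhibitory hormone in birds. In fish, as in mammals, its neurons lie in the hypothalamus, and in zebrafish larvae they have been linked to sleep. The kiss1 gene encodes a kisspeptin. In mammals kisspeptin neurons of the hypothalamus drive gonadotropin-releasing hormone neurons, but in zebrafish kiss1 is known chiefly from the habenula, a dorsal structure that signals to serotonergic neurons of the raphe, while its paralog kiss2 is the hypothalamic form. The tac3a gene encodes a tachykinin precursor related to neurokinin B, which in the mammalian hypothalamus is made by many of the kisspeptin neurons. Levels are in counts-per-million (CPM) after scaling within a tissue, or over both adult regions where these are compared, and they are not corrected for transcript length, so levels are compared between libraries and never between genes. In pooled tissue, a lower level can come from fewer cells of a type or from less RNA in each cell, and these cannot be told apart here.

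Library totals ran from 10188323 to 22823560 counts. The larval heads of unstressed vehicle fish stood apart: the correlation of each library with the other 5 of its group was 0.883 to 0.922 on average, against 0.953 to 0.983 in the other 11 groups. Summed skeletal muscle markers in these 6 libraries spanned 3449 to 30236 CPM and summed liver markers 165 to 10390 CPM, whereas in the other larval groups the highest values were 17334 and 2395 CPM. Larval member values that use this group are therefore given beside those without replicates 1 to 3, a choice of libraries made with these differences known. The mean correlations did not single these replicates out. They were 0.883, 0.910 and 0.911 for replicates 1 to 3 and 0.886, 0.883 and 0.922 for replicates 4 to 6. Values without replicates 1 to 3 are therefore not shown to be free of deviating libraries. In the hypothalamus the lowest correlations were those of stressed vehicle replicates 1 and 4, at 0.953 and 0.960. In unstressed vehicle fish the group means of TBR1 and PMCH matched the labels of the adult regions. TBR1, a transcription factor of the telencephalon, averaged 200 CPM in the telencephalon and 3.20 CPM in the hypothalamus. PMCH, a hypothalamic peptide precursor, averaged 104 CPM in the hypothalamus and 0.0306 CPM in the telencephalon. These means do not show that each dissection was free of other tissue. Summed pineal and retina markers had a median of 177 CPM and reached 2517 CPM in stressed fluoxetine hypothalamus. In stressed vehicle telencephalon these values were 728 and 3220 CPM. Summed cerebellum markers reached 1893 CPM in unstressed fluoxetine hypothalamus, against 970 CPM with unstressed vehicle. What tissue these sums measure and their part in the adult differences were not tested.

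In larval heads npvf was about 2.1-fold higher after fluoxetine, with or without stress. In unstressed larvae the vehicle libraries held 2.57, 4.15 and 5.42 CPM (lowest, median and highest) and the fluoxetine libraries 7.60, 8.72 and 9.78 CPM. In stressed larvae the vehicle libraries held 2.42, 3.23 and 3.62 CPM and the fluoxetine libraries 4.13, 6.78 and 7.91 CPM. In each stress state every fluoxetine library lay above every vehicle library. The means were 4.09 ± 0.91 against 8.73 ± 1.07 CPM without stress and 3.16 ± 0.45 against 6.55 ± 1.28 CPM with it (SD, n = 6). The fitted log2 fold changes were 1.09 ± 0.17 (SE) without stress, or 2.14-fold, and 1.05 ± 0.17 with it, or 2.08-fold. Among all 20260 genes tested in larval heads, 0.814% were higher in fluoxetine fish without overlap in the unstressed comparison and 3.26% in the stressed comparison. Without replicates 1 to 3 of the unstressed vehicle group the first fold change was again 1.09. The 2 vehicle sets are different libraries, and so are the 2 fluoxetine sets.

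Stress went with lower npvf in larval heads under both exposures, with overlapping libraries. The log2 fold change of stressed over unstressed larvae was -0.37 ± 0.17 in vehicle fish (-0.38 ± 0.21 without replicates 1 to 3 of the unstressed group) and -0.42 ± 0.16 in fluoxetine fish. These 2 differences differed from each other by -0.04 ± 0.24 on the log2 scale, and by -0.04 ± 0.27 without these 3 libraries. From high to low the order was unstressed fluoxetine, stressed fluoxetine, unstressed vehicle and stressed vehicle larvae, and each group overlapped with the next. Stressed fluoxetine and unstressed vehicle larvae overlapped through stressed fluoxetine replicate 3, at 4.13 CPM. The 19 hypothalamus markers that were matched summed to 186 to 299 CPM in unstressed vehicle larvae and 217 to 347 CPM in unstressed fluoxetine larvae, and over the 24 larval libraries npvf and this sum had a Pearson correlation of 0.14 and a Spearman correlation of 0.14. Other summed marker lists ran from -0.44 (pineal and retina, Spearman -0.56) to 0.41 (cerebellum, Spearman 0.49). The part of tissue content in the npvf differences was not tested.

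In larval heads kiss1 was also higher after fluoxetine, on counts of 16 to 61 a library. In unstressed larvae the vehicle libraries held 0.730, 1.198 and 2.001 CPM and the fluoxetine libraries 1.82, 2.66 and 4.66 CPM. In stressed larvae these values were 1.01, 1.55 and 3.02 CPM with vehicle and 2.74, 3.58 and 5.16 CPM with fluoxetine. In each case 1 vehicle library reached into the fluoxetine range: vehicle replicate 6 without stress and vehicle replicate 2 with it. The means were 1.29 ± 0.48 against 3.10 ± 1.27 CPM and 1.69 ± 0.71 against 3.72 ± 0.86 CPM (SD, n = 6), and the log2 fold changes were 1.25 ± 0.29 and 1.15 ± 0.29. The log2 fold change with stress was 0.37 ± 0.30 in vehicle larvae and 0.27 ± 0.28 in fluoxetine larvae, of the order of its error. Without replicates 1 to 3 of the unstressed vehicle group the fluoxetine difference in unstressed larvae was 0.92 ± 0.34 and the stress difference in vehicle larvae 0.040 ± 0.34.

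The habenula list was split in how it went with kiss1 across the larval libraries. Of 15 habenula markers that were matched beside kiss1 itself, 7 had a Pearson correlation above 0.5 with it over the 24 libraries and 5 had one below 0. The highest was that of gng8, a G protein subunit, at 0.81 (Spearman 0.80, and 0.75 without the 2 libraries farthest from the median). GPR151, an orphan receptor of habenular neurons, stood at 0.71 (Spearman 0.79, and 0.60 without 2 libraries). With the group means subtracted these values were 0.43 for gng8 and 0.52 for GPR151. The lowest was that of AOC1, an amine oxidase, at -0.64 (Spearman -0.59), and the nicotinic receptor subunits CHRNA3 and CHRNB4 stood at -0.48 and -0.33. Another nicotinic subunit of the list, CHRNA5, went the other way, at 0.56 (Spearman 0.63). The summed 15 markers spanned 219 to 364, 309 to 341, 294 to 369 and 332 to 401 CPM in unstressed vehicle, stressed vehicle, unstressed fluoxetine and stressed fluoxetine larvae. LRRTM1, KCTD8 and ETV1 made up 29.8%, 13.2% and 9.84% of this sum. The sum had a Pearson correlation of 0.65 with kiss1, beside 0.71 for summed cerebellum and 0.64 for summed hypothalamus markers. With the group means subtracted these were 0.36, 0.40 and 0.50. The remaining marker lists ran from -0.57 (pituitary) to 0.38 (telencephalon) before subtraction, so the correlation was not particular to the habenula list. The part of habenular content in the kiss1 differences was not tested, and the libraries share tissue composition and depth.

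In larval heads tac3a was higher in stressed than in unstressed larvae under both exposures. The unstressed vehicle libraries held 7.73, 9.497 and 9.70 CPM and the stressed vehicle libraries 13.7, 17.1 and 18.7 CPM. The unstressed fluoxetine libraries held 10.47, 14.1 and 17.46 CPM and the stressed fluoxetine libraries 17.7, 21.3 and 23.2 CPM. Under each exposure the stressed and unstressed libraries did not overlap, and the gap in fluoxetine fish was narrow, from 17.46 to 17.72 CPM. The means were 9.06 ± 0.83, 17.03 ± 1.76, 14.2 ± 2.5 and 20.7 ± 2.0 CPM (SD, n = 6) in the same order. The tac3a level of stressed larvae was 1.88-fold that of unstressed larvae with vehicle, a log2 fold change of 0.91 ± 0.11, and 1.46-fold with fluoxetine, 0.55 ± 0.11. Of all genes tested, 2.01% in the vehicle comparison and 3.22% in the fluoxetine comparison were higher with stress without overlap.

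Fluoxetine also went with higher tac3a in larval heads. In unstressed larvae the log2 fold change was 0.64 ± 0.11 and the libraries did not overlap, and in stressed larvae it was 0.28 ± 0.11 with overlap. Of all genes tested, 0.814% were higher with fluoxetine without overlap in unstressed larvae. The stress difference was smaller in fluoxetine larvae by 0.36 on the log2 scale (-0.36 ± 0.16). Without replicates 1 to 3 of the unstressed vehicle group the stress difference in vehicle larvae was 0.92 ± 0.15, the fluoxetine difference in unstressed larvae 0.65 ± 0.15 and the difference of the stress responses -0.36 ± 0.18. Stressed fluoxetine larvae thus had the highest tac3a level, stressed vehicle larvae came next and overlapped with both fluoxetine groups, and unstressed vehicle larvae lay below every library of the other 3 groups. The share of all genes that set this group below the other 3 was not counted, and its libraries stood apart in their correlations and markers.

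**Figure D1:**
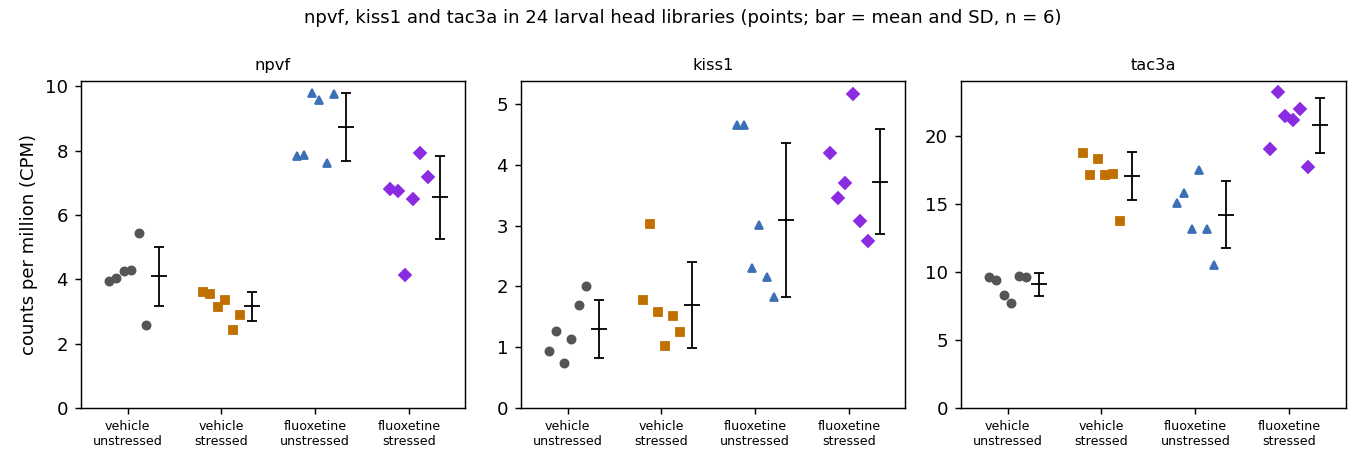
Levels of npvf, kiss1 and tac3a in CPM (vertical axes, from 0) in 24 larval head libraries, by exposure and stress; each point is a library and each bar the mean and SD of 6. For npvf the fluoxetine libraries lie above the vehicle libraries of the same stress state, and for tac3a the unstressed vehicle libraries, at 7.73 to 9.70 CPM, lie below all others. The share of all genes that do the latter was not counted.

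Of the receptors of these peptides, 7 entries had enough counts in larval heads: kiss1ra, KISS1R, npffr1l1, NPFFR1, npffr1l2 and 2 entries named TACR3. With fluoxetine the lowest adjusted p among them by edgeR's quasi-likelihood test was 0.169 in unstressed larvae (TACR3, ENSDARG00000003054) and 0.161 in stressed larvae (npffr1l1), so no receptor passed the threshold of 0.05 that 10.8% and 5.19% of all genes passed. With stress in vehicle larvae, 2 of the 7 were higher. TACR3 (ENSDARG00000003054), a receptor for neurokinin B, rose from 3.13 ± 1.41 to 5.50 ± 0.60 CPM, a log2 fold change of 0.82 ± 0.21 (edgeR adjusted p = 0.0113). The npffr1l1 gene, which encodes a receptor of the neuropeptide FF receptor 1 family to which the npvf peptides bind, rose from 0.558 ± 0.091 to 1.201 ± 0.404 CPM, by 1.09 ± 0.30 (edgeR adjusted p = 0.0149). In this comparison 21.2% of all genes passed, and neither receptor passed without replicates 1 to 3 of the unstressed vehicle group, with edgeR adjusted p-values of 0.372 and 0.214. In fluoxetine larvae the stress differences of TACR3 and npffr1l1 were 0.36 ± 0.21 (edgeR adjusted p = 0.532) and 0.14 ± 0.32 (edgeR adjusted p = 0.922).

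The wider reproductive lists in larval heads were read against the same background. The reproductive peptides, receptors and sex steroid genes that were matched came to 46 entries beside npvf, kiss1 and tac3a, of which 39 were tested in larval heads. With fluoxetine in unstressed larvae 2 passed, or 5.13%, against 10.8% of all genes. Both were higher: NMU, the neuromedin U precursor, by 0.69 ± 0.21 (edgeR adjusted p = 0.0378) and NPY, the neuropeptide Y precursor, by 0.64 ± 0.20 (edgeR adjusted p = 0.0411). Each of these 2 calls was lost in 8 of 12 fits that left out a library. With fluoxetine in stressed larvae none passed by edgeR and 1 by DESeq2, and 8 had an unadjusted p under 0.05. Stress in vehicle larvae gave 8 higher and 1 lower of the 39, where 21.2% of all genes passed. Among them were NPY by 1.01 ± 0.20 (edgeR adjusted p = 0.00194), scg2b, a secretogranin precursor, by 0.74 ± 0.17 (edgeR adjusted p = 0.00576), and STAR, which moves cholesterol into mitochondria for steroid synthesis, by -2.11 ± 0.51 (edgeR adjusted p = 0.00765). With replicates 1 to 3 of the unstressed vehicle group left out, 1 of the 46 passed in this comparison, and without replicate 3 alone 5 passed. Among the RFamide and tachykinin genes, 1 of 21 passed with fluoxetine in stressed larvae, where 5.19% of all genes passed. It was an entry named QRFPR, a receptor of the RFamide peptide made from qrfp. This entry fell by 1.02 on the log2 scale (SE 0.28, edgeR adjusted p = 0.0329), a call that was lost in 9 of 12 fits that left out a library. Another entry of the same name did not pass there. In fluoxetine larvae stress gave none of the reproductive entries by edgeR, where 2.33% of all genes passed, with 5 at an unadjusted p under 0.05, and 3 by DESeq2. In the vehicle comparison 4 of 11 liver and 8 of 10 muscle markers were also lower under stress, and their part in these list counts was not tested.

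Of the adult regions sampled, the hypothalamus held nearly all npvf counts. In unstressed vehicle fish the 6 hypothalamus libraries held 1812 npvf counts and the 6 telencephalon libraries 3. From these pooled counts the ratio in CPM was 669, with an exact 95% interval of 229 to 3249 that covers counting error only. The group means were 20.4 and 0.0350 CPM. Of the 24 telencephalon libraries 14 had no npvf count, and npvf was too low there to be tested. The library with the most was stressed fluoxetine replicate 3, with 33 counts or 1.55 CPM, against at most 4 counts in the other 23. The same library held 24 counts of PMCH and 84 of pmchl, which encode melanin-concentrating hormone precursors of hypothalamic neurons, against at most 3 and 8 in the others. It also held 34 counts of kiss2, against at most 18.

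In the adult hypothalamus no pair of groups was separated by npvf. The unstressed vehicle libraries held 13.99, 19.2 and 28.2 CPM, the stressed vehicle libraries 6.92, 15.8 and 18.04 CPM, the unstressed fluoxetine libraries 9.44, 16.8 and 20.8 CPM and the stressed fluoxetine libraries 16.9, 19.2 and 26.3 CPM. All 4 groups overlapped. The means were 19.8 ± 5.2, 14.7 ± 4.0, 15.6 ± 4.7 and 19.98 ± 3.55 CPM (SD, n = 6) in that order. Stress went with lower npvf in vehicle fish, by -0.43 ± 0.21 on the log2 scale, and with higher npvf in fluoxetine fish, by 0.36 ± 0.21. The difference between these 2 changes was 0.79 ± 0.30, and 0.61 without stressed vehicle replicates 1 and 4. The fluoxetine difference was -0.34 ± 0.21 without stress and 0.45 ± 0.21 with it, beside 1.09 and 1.05 in larval heads. Summed hypothalamus markers spanned 862 to 1265 CPM in unstressed vehicle, 567.8 to 908 CPM in stressed vehicle, 587 to 1034 CPM in unstressed fluoxetine and 620 to 831 CPM in stressed fluoxetine libraries, and over the 24 libraries npvf correlated with this sum at 0.47 (Pearson) and 0.42 (Spearman). Other summed marker lists had Pearson correlations with npvf from -0.09 (cerebellum) to 0.48 (pituitary), with 0.45 for telencephalon markers.

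The adult hypothalamus had more tac3a than the telencephalon, by 2.02 ± 0.17 on the log2 scale in unstressed vehicle fish, or 4.06-fold. The libraries of the 2 regions did not overlap, as for 8.89% of all genes that were higher in the hypothalamus without overlap. Within the hypothalamus the unstressed vehicle libraries held 40.8, 50.1 and 57.8 CPM, the stressed vehicle libraries 35.6, 43.1 and 58.9 CPM, the unstressed fluoxetine libraries 25.05, 34.3 and 46.1 CPM and the stressed fluoxetine libraries 33.1, 44.4 and 52.4 CPM. All groups overlapped, and unstressed fluoxetine fish had the lowest median. The fluoxetine difference was -0.49 ± 0.15 in unstressed fish, beside 0.64 ± 0.11 in larval heads, and -0.06 ± 0.15 in stressed fish. The stress difference was -0.15 ± 0.15 with vehicle and 0.28 ± 0.15 with fluoxetine. The summed hypothalamus markers went with tac3a over the 24 libraries, with a Pearson correlation of 0.64 and a Spearman correlation of 0.66. This was not particular to that list. Summed habenula markers, of which tac1 makes up 36.8%, had a Pearson correlation of 0.82 with tac3a, and summed telencephalon markers 0.55. The remaining marker lists ran from -0.24 (cerebellum) to 0.47 (pituitary). The part of tissue content in the tac3a differences was not tested.

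In the adult telencephalon tac3a was higher in stressed fish under both exposures. The unstressed vehicle libraries held 8.46, 14.1 and 15.6 CPM and the stressed vehicle libraries 13.6, 16.8 and 21.6 CPM. The unstressed fluoxetine libraries held 7.38, 10.1 and 12.998 CPM and the stressed fluoxetine libraries 13.8, 16.7 and 22.9 CPM. In vehicle fish the stressed and unstressed libraries overlapped, and in fluoxetine fish they did not, with a small distance between them from 12.998 to 13.8 CPM. The log2 fold changes with stress were 0.44 ± 0.17 in vehicle fish and 0.78 ± 0.17 in fluoxetine fish, and they differed by 0.34 ± 0.24. Of all 18367 genes tested there, 5.73% were higher in stressed than in unstressed fluoxetine fish without overlap. The fluoxetine difference was -0.30 ± 0.17 without stress and 0.04 ± 0.17 with it. The first turned direction between the adult libraries that the labels number 1 to 24 and 25 to 48, at 0.054 ± 0.25 and -0.63 ± 0.20, and the difference of the stress responses was -0.011 ± 0.35 and 0.68 ± 0.28 in them. Whether the stress difference of tac3a differs between tissues was not tested. Summed hypothalamus markers in the telencephalon spanned 217 to 811, 317 to 585, 289 to 544 and 431 to 710 CPM in unstressed vehicle, stressed vehicle, unstressed fluoxetine and stressed fluoxetine libraries. They correlated with tac3a at 0.62 (Spearman 0.67), and their part in the tac3a differences was not tested. Of this list pmchl reached at most 0.629 CPM outside stressed fluoxetine replicate 3, and whether the sum measures hypothalamic tissue in these libraries was not tested.

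**Figure D2:**
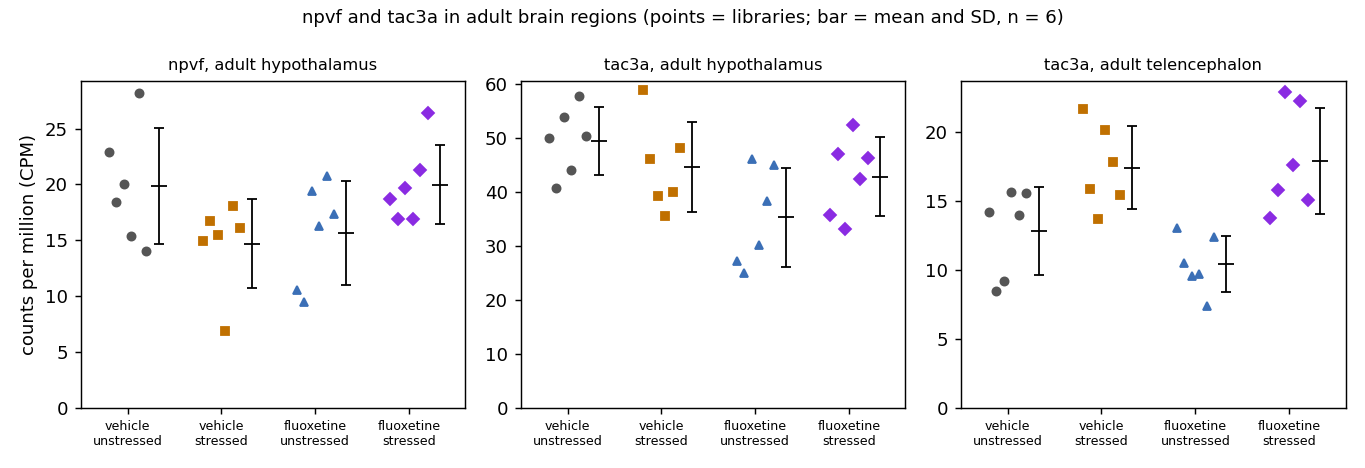
Levels of npvf in the adult hypothalamus and of tac3a in the adult hypothalamus and telencephalon, in CPM (vertical axes, from 0), by exposure and stress; each point is a library and each bar the mean and SD of 6. All hypothalamus groups overlap, and in the telencephalon the stressed fluoxetine libraries start at 13.8 CPM, just above the unstressed fluoxetine libraries.

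In adults kiss1 varied widely among libraries of the same group. In the hypothalamus the 6 unstressed vehicle libraries held 0 to 0.458 CPM, with a median of 0.0656 CPM. The stressed vehicle libraries held 10.4, 3.34, 1.02, 5.51, 0.209 and 0 CPM in the order of their replicate numbers. The unstressed fluoxetine libraries held 0.0577 to 1.68 CPM and the stressed fluoxetine libraries 0 to 0.380 CPM apart from replicate 4, which held 9.89 CPM. Libraries of 162 and 202 counts thus stood beside libraries with none. The fitted log2 fold change with stress was 4.43 ± 1.5 in vehicle fish and 1.44 ± 1.21 in fluoxetine fish, with overlap in both. Without stressed fluoxetine replicate 4 the second value was -2.25, and without stressed vehicle replicate 1 the first was 3.72. The fluoxetine difference in stressed fish was -0.94 ± 1.11, and it was -4.64 without stressed fluoxetine replicate 4 and 0.60 without stressed vehicle replicates 1 and 4.

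In the telencephalon kiss1 was present in more libraries, at 0 to 7.79 CPM. The unstressed vehicle libraries held 3.50, 0, 0.128, 3.06, 1.43 and 4.01 CPM in the order of their replicate numbers, and the stressed vehicle libraries 1.204 to 7.79 CPM with a median of 4.71 CPM. The unstressed fluoxetine libraries held 0 to 4.39 CPM with a median of 0.361 CPM, and the stressed fluoxetine libraries 0.158 to 7.003 CPM with a median of 2.57 CPM. Every pair of groups overlapped. The log2 fold changes with stress were 1.07 ± 0.93 with vehicle and 1.31 ± 0.95 with fluoxetine, and those with fluoxetine were -0.56 ± 0.98 and -0.32 ± 0.89. Between the regions, unstressed vehicle libraries held less kiss1 in the hypothalamus than in the telencephalon by -3.60 ± 1.46 on the log2 scale, with overlap.

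Some habenula genes were high in the same adult libraries as kiss1, although the habenula is not among the regions that the labels name. In the hypothalamus the Pearson correlation of kiss1 over 24 libraries, on log2 of CPM plus 0.1, was 0.81 with gng8, 0.79 with GPR151 and 0.76 with POU4F1, a transcription factor of habenular neurons. The Spearman values were 0.53, 0.54 and 0.84, and without the 2 libraries farthest from the median the Pearson values were 0.69, 0.67 and 0.79. In the telencephalon the Pearson values were 0.76, 0.83 and 0.86 and the Spearman values 0.88, 0.90 and 0.87, with 0.80, 0.81 and 0.83 without 2 libraries. With the group means subtracted the Pearson values were 0.77, 0.75 and 0.72 in the hypothalamus and 0.74, 0.80 and 0.87 in the telencephalon. Stressed fluoxetine replicate 4 of the hypothalamus, with 9.89 CPM of kiss1, held 14.7 CPM of gng8 and 6.12 CPM of GPR151, whereas gng8 reached 0.242 CPM and GPR151 0.404 CPM at most in the 6 unstressed vehicle libraries. POU4F1 did not show this contrast, at 6.85 CPM in that library and up to 5.37 CPM in the unstressed vehicle libraries. These 3 genes were singled out from the habenula list after their values were seen.

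The habenula list as a whole behaved less evenly. Of its 15 other matched entries, 5 in the hypothalamus and 6 in the telencephalon had a Pearson correlation above 0.5 with kiss1, and 5 and 2 had one below 0. Its summed level correlated with kiss1 at -0.00 in the hypothalamus, where tac1 makes up 36.8% of the sum, and at 0.49 in the telencephalon. The summed level spanned 554 to 595, 506 to 581, 465 to 600 and 458 to 601 CPM in unstressed vehicle, stressed vehicle, unstressed fluoxetine and stressed fluoxetine hypothalamus. In the telencephalon these ranges were 536 to 630, 451 to 602, 475 to 604 and 529 to 595 CPM. The share of habenular tissue in these dissections was not tested. Over the hypothalamus libraries kiss1 went against npvf, at -0.61 (Spearman -0.74), and against the summed hypothalamus markers, at -0.51 (Spearman -0.52). The latter was not particular to that list. Other summed marker lists ran from -0.47 (pituitary) to 0.07 (cerebellum) with kiss1, with -0.43 for telencephalon markers. In the telencephalon tac3a went with the same genes, at 0.71 with gng8, 0.75 with GPR151 and 0.68 with POU4F1, and at 0.80 with kiss1 (Spearman 0.79). In the hypothalamus tac3a correlated with them at -0.01, -0.15 and -0.40, and with kiss1 at -0.14. Of the 15 entries, 5 in the telencephalon and 1 in the hypothalamus had a Pearson correlation above 0.5 with tac3a. In the same order, 3 and 9 had one below 0.

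**Figure D3:**
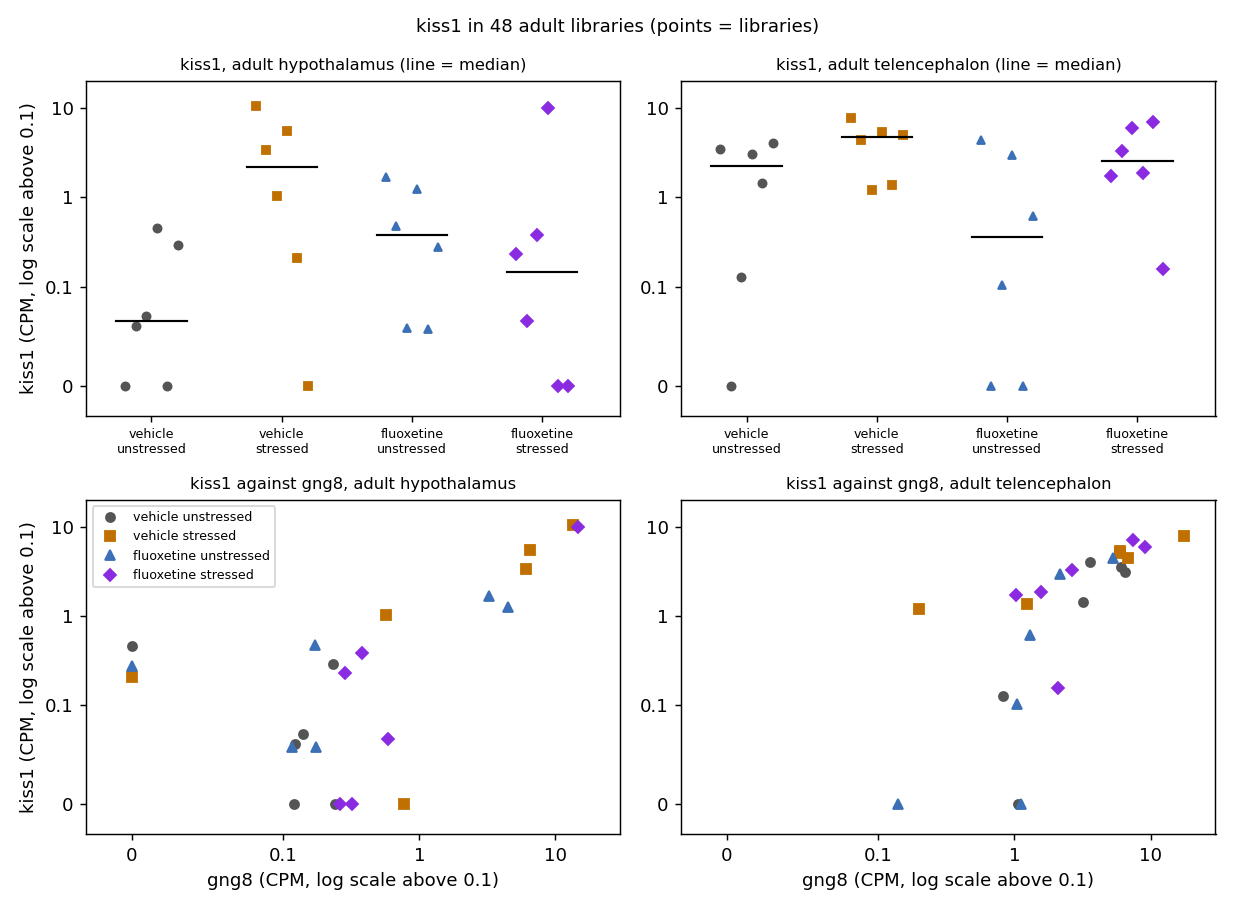
Levels of kiss1 in 48 adult libraries in CPM (linear below 0.1, log scale above), by exposure and stress with the group median as a line (upper panels), and against the habenula gene gng8 on like axes (lower panels). The 6 hypothalamus libraries with the most kiss1, from 1.24 CPM up, are also the 6 with the most gng8, from 3.25 CPM up, and stressed vehicle replicate 1 and stressed fluoxetine replicate 4 stand highest on both axes.

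Among the receptors, kiss1ra was higher in stressed adults in each region and under each exposure. This gene encodes a kisspeptin receptor. In the hypothalamus of vehicle fish it rose from 1.86 ± 0.52 to 4.97 ± 1.87 CPM, a log2 fold change of 1.42 ± 0.24 (edgeR adjusted p = 0.000159), and in fluoxetine fish from 2.93 ± 0.58 to 5.89 ± 0.85 CPM, by 1.01 ± 0.23 (edgeR adjusted p = 0.00949). In the telencephalon it rose from 1.65 ± 0.57 to 3.88 ± 0.84 CPM with vehicle, by 1.22 ± 0.22 (edgeR adjusted p = 0.000184), and from 2.13 ± 0.59 to 4.11 ± 0.73 CPM with fluoxetine, by 0.95 ± 0.21 (edgeR adjusted p = 0.00379). The groups overlapped in the hypothalamus of vehicle fish, through stressed replicate 1 at 1.67 CPM, and in none of the other 3 comparisons. In the hypothalamus 36.8% of all genes passed with vehicle and 6.49% with fluoxetine, and in the telencephalon 26.8% and 13.6%. Of all genes, 3.34% in the hypothalamus of fluoxetine fish, and 4.14% and 5.73% in the telencephalon of vehicle and fluoxetine fish, were higher with stress without overlap. The 4 calls held in each of 12 fits that left out a library. None of the fluoxetine comparisons of kiss1ra passed, with adjusted p-values from 0.0557 to 0.855 in the adult regions. In larval heads kiss1ra did not pass with stress, at 0.62 ± 0.31 with vehicle (edgeR adjusted p = 0.153) and -0.15 ± 0.32 with fluoxetine (edgeR adjusted p = 0.919).

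The second kisspeptin receptor entry, KISS1R, had means of 0.170 to 0.742 CPM in the adult groups. It was tested in the telencephalon, where it did not pass in any comparison, and it was too low to be tested in the hypothalamus. The receptors npffr1l1 and npffr1l2 passed with fluoxetine in the hypothalamus of unstressed fish, at 0.73 ± 0.25 (edgeR adjusted p = 0.0386) and 1.03 ± 0.34 (edgeR adjusted p = 0.0277), but these calls were lost in 8 and 5 of 12 fits that left out a library. In that comparison 24.4% of all genes passed. The npffr1l2 gene rose with stress in the hypothalamus of vehicle fish, from 0.894 ± 0.373 to 2.11 ± 0.99 CPM, by 1.25 ± 0.33 (edgeR adjusted p = 0.0057), where 36.8% of all genes passed. The npffr1l1 gene rose with stress in the telencephalon of fluoxetine fish, from 0.488 ± 0.260 to 1.21 ± 0.34 CPM, by 1.31 ± 0.32 (edgeR adjusted p = 0.00751), where 13.6% of all genes passed. For NPFFR1 (ENSDARG00000111997) the lowest edgeR adjusted p in the adult comparisons of exposure or stress was 0.072, with stress in the hypothalamus of vehicle fish. The TACR3 entry that rose in stressed larvae did not pass in the adult regions, at 0.75 ± 0.33 with stress in the hypothalamus of vehicle fish (edgeR adjusted p = 0.0781). In the hypothalamus that TACR3 entry was among the 5 genes whose pattern was most like that of kiss1, with a Pearson correlation of 0.79 over 24 libraries. The entries named NPFFR2, QRFPR, TACR3, TACR1, ESR2 and NR5A1 occur in pairs of paralogs, and reads that fit both copies could be split between them.

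**Figure D4:**
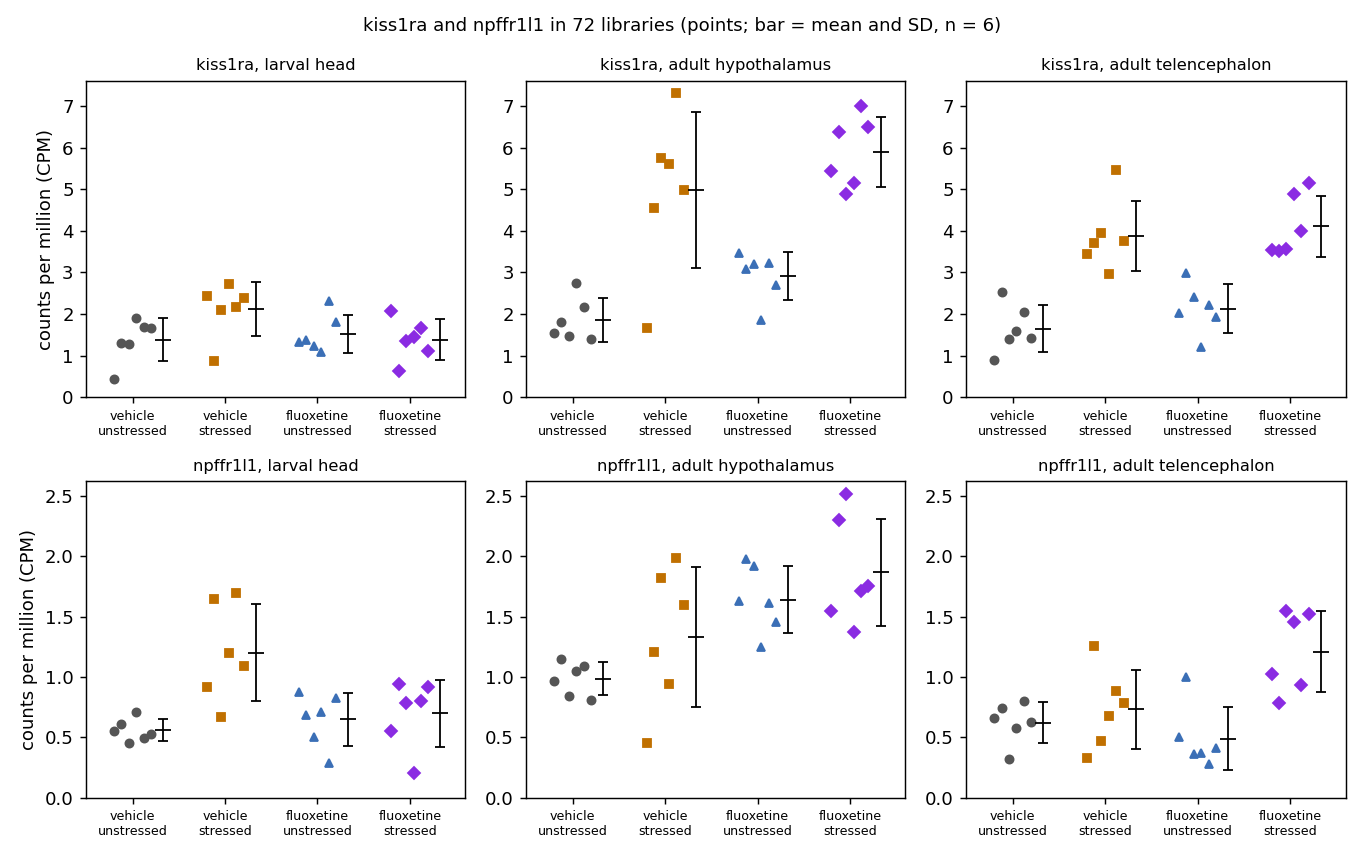
Levels of kiss1ra (upper row) and npffr1l1 (lower row) in CPM (vertical axes, from 0, alike within a row) in larval heads, adult hypothalamus and adult telencephalon; each point is a library and each bar the mean and SD of 6. In the adult regions stressed fish hold more kiss1ra than unstressed fish of the same exposure, with 1 low stressed vehicle hypothalamus library at 1.67 CPM.

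The other reproductive genes in the adult hypothalamus passed about as often as all genes with stress in vehicle fish: 15 of 41 tested entries, 10 higher and 5 lower, or 36.6%, against 36.8% of all genes. The count was 9 without stressed vehicle replicate 5. OPRK1, the kappa opioid receptor, rose by 1.24 ± 0.24 (edgeR adjusted p = 0.00058) and ESR2 (ENSDARG00000016454), an estrogen receptor, by 0.75 ± 0.18 (edgeR adjusted p = 0.00245), while PMCH fell by 0.72 on the log2 scale (SE 0.19, edgeR adjusted p = 0.00495). Of the 17 calls among reproductive, RFamide and tachykinin entries in this comparison, 9 held in every fit that left out a library. The summed hypothalamus markers of these groups, given above, reached lower values in the stressed vehicle libraries. Of 19 hypothalamus markers 12 were lower and 2 higher in this comparison, and 9 of 15 telencephalon markers were lower, and their part in these counts was not tested.

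With fluoxetine in unstressed fish, a comparison with the same unstressed vehicle libraries, 13 of 41 entries passed, 7 higher and 6 lower, where 24.4% of all genes passed. The count was 5 without unstressed vehicle replicate 6, and 7 without unstressed vehicle replicate 3 or unstressed fluoxetine replicate 1 or 2. In the same comparison 10 of 19 hypothalamus markers were lower, with a median log2 fold change of -0.45 over the 19, and 3 of 7 skeletal muscle markers were higher, and the part of tissue content in these counts and in the genes named next was not tested. The gnrh3 gene, which encodes the gonadotropin-releasing hormone of the preoptic and terminal nerve neurons of zebrafish, fell by 1.40 on the log2 scale, from 1.75 to 0.660 CPM (SE 0.32, edgeR adjusted p = 0.00435). GAL, the galanin precursor, fell by 0.67 (SE 0.18, edgeR adjusted p = 0.0108). The entry NPFFR2 (ENSDARG00000060702), a neuropeptide FF receptor, rose from 0.595 to 1.70 CPM, by 1.53 ± 0.35 (edgeR adjusted p = 0.00409). Of the 15 calls among reproductive, RFamide and tachykinin entries here, 6 held in every fit that left out a library, these 3 genes among them. In stressed fish 1 entry passed with fluoxetine: tac3b, the paralog of tac3a, which fell by 1.53 (SE 0.35, edgeR adjusted p = 0.0177), where 2.07% of all genes passed, and this call was lost without stressed fluoxetine replicate 5.

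With stress in fluoxetine fish 3 of 41 entries passed in the hypothalamus, all higher, a share of 7.32% beside 6.49% of all genes. The count was 7 by DESeq2, 10 with a replicate block and 5 or 6 without unstressed fluoxetine replicate 3 or 4 or stressed fluoxetine replicate 5. The 3 were kiss1ra, OPRK1 by 1.06 ± 0.23 (edgeR adjusted p = 0.00722) and HSD17B3, a hydroxysteroid dehydrogenase that makes testosterone in mammals, by 0.63 ± 0.15 (edgeR adjusted p = 0.0100). Of the RFamide peptides outside this list, prlh2, a prolactin-releasing hormone precursor, rose from 17.3 to 31.5 CPM, by 0.87 ± 0.16 (edgeR adjusted p = 0.00143). The difference between the stress responses of vehicle and fluoxetine fish passed for none of the 46 entries in any tissue by edgeR, with 2, 6 and 4 entries at an unadjusted p under 0.05 in larval heads, hypothalamus and telencephalon, where 0.133%, 0.511% and 0.8% of all genes passed. By DESeq2 it passed for 1 entry, in the telencephalon.

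In the telencephalon stress gave 12 higher and none lower of 35 tested entries with vehicle, where 26.8% of all genes passed, and 12 higher and 1 lower with fluoxetine, where 13.6% passed. The second count, 13 in all, was 8 without stressed fluoxetine replicate 6 or unstressed fluoxetine replicate 5. The median log2 fold change of the 35 entries was 0.39 and 0.52, against -0.00 and -0.02 over all genes. The estrogen receptor ESR1 rose by 0.70 ± 0.12 with vehicle (edgeR adjusted p = 0.000161) and by 0.55 ± 0.12 with fluoxetine (edgeR adjusted p = 0.00381), and PGR, the progesterone receptor, by 1.28 ± 0.27 (edgeR adjusted p = 0.00142) and 1.44 ± 0.28 (edgeR adjusted p = 0.00109). The gonadotropin-releasing hormone receptor gnrhr2 rose by 1.77 ± 0.24 (edgeR adjusted p = 5.25e-06) and 0.86 ± 0.23 (edgeR adjusted p = 0.0158). The RFamide precursor prlh2 rose by 1.65 ± 0.24 with vehicle (edgeR adjusted p = 1.64e-05) and 1.68 ± 0.23 with fluoxetine (edgeR adjusted p = 1.12e-05). All these calls held in each fit that left out a library. Summed telencephalon markers spanned 1735 to 1976, 1283 to 1611, 1588 to 1851 and 1389 to 1616 CPM in unstressed vehicle, stressed vehicle, unstressed fluoxetine and stressed fluoxetine libraries, lower in stressed fish, and their part in these counts was not tested.

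With fluoxetine in the telencephalon 3 of 35 entries passed in unstressed fish, 2 higher and 1 lower, where 7.81% of all genes passed, and leaving out a library gave 1 to 7. OPRK1 rose from 2.22 to 4.60 CPM, by 1.05 ± 0.19 (edgeR adjusted p = 0.00694), and this was the 1 of 5 calls among reproductive, RFamide and tachykinin entries that held in every fit that left out a library. In stressed fish tac3b alone passed, where 3.51% of all genes did. It fell by 1.15 on the log2 scale, from 7.87 to 3.53 CPM without overlap (SE 0.19, edgeR adjusted p = 0.000446), where 2% of all genes were lower without overlap, while tac3a in the same libraries differed by 0.04 ± 0.17.

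Between the regions in unstressed vehicle fish 29 of 43 tested reproductive entries passed, 20 higher and 9 lower in the hypothalamus, where 38.2% of all genes passed. Of the paralogs of the members, kiss2 was higher in the hypothalamus, at 27.2 against 0.394 CPM, by 6.12 ± 0.32 (edgeR adjusted p = 1.47e-20), and tac3b was lower, at 1.41 against 6.32 CPM, by -2.16 ± 0.27 (edgeR adjusted p = 7.11e-09).

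**Figure D5:**
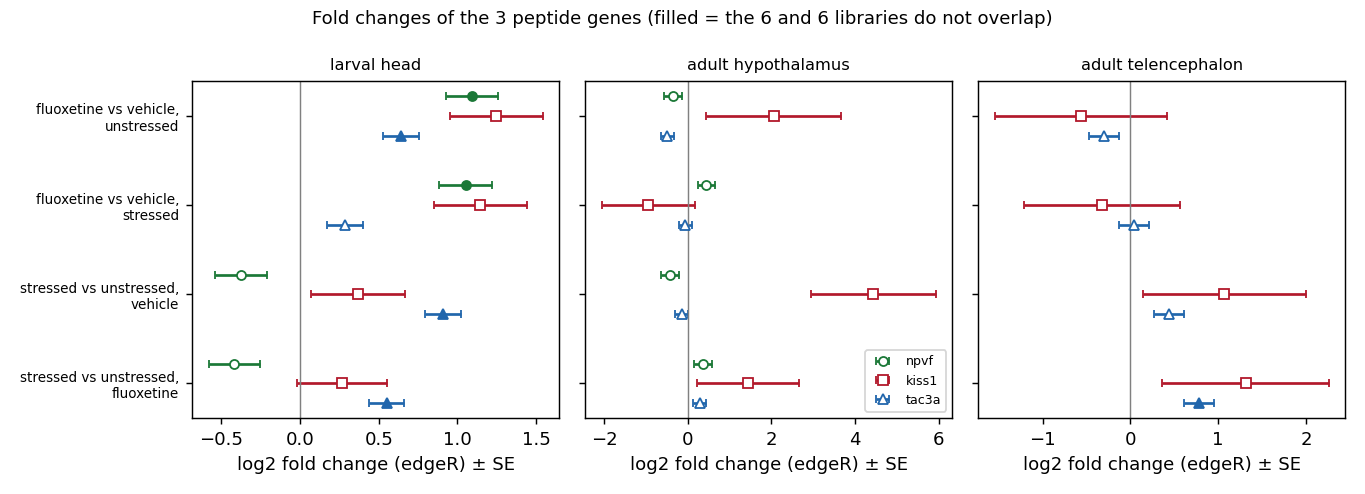
Log2 fold changes of npvf, kiss1 and tac3a with their standard errors (horizontal axes, each panel with its own range) for 4 comparisons (rows) in larval heads, adult hypothalamus and adult telencephalon. Filled symbols mark comparisons in which the 6 and 6 libraries do not overlap: npvf with fluoxetine and tac3a with stress in larval heads, tac3a with fluoxetine in unstressed larvae, and tac3a with stress in the telencephalon of fluoxetine fish.

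Genes with the most similar pattern were taken for each member from the 24 libraries of a tissue, as the Pearson correlation of log2 CPM among 14718 to 16902 genes of sufficient level. In larval heads npvf was most like znf1185 (0.86) and EIF2B4 (0.86), a translation initiation factor subunit, and with the group means subtracted these correlations were 0.11 and 0.38. For kiss1 in larval heads the top genes were 2 entries named TMEFF2, at 0.91 and 0.90, and these kept 0.80 and 0.73 with the group means subtracted. For tac3a in larval heads they were RASL11B (0.92) and SNAPC5 (0.90), with 0.36 and 0.47 after subtraction, and VIP, the vasoactive intestinal peptide precursor, was among the 5 (0.88).

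In the adult hypothalamus the highest correlation of npvf was 0.75, with FADS3, which belongs to the fatty acid desaturase family. The genes most like tac3a there included other neuropeptide precursors: tac1, which encodes substance P, and VIP, each at 0.87, and NTS, the neurotensin precursor, at 0.85. In the telencephalon tac3a was most like AOC1 (0.89), which is on the habenula list, and penka (0.85), an enkephalin precursor. For kiss1 in the telencephalon the top gene was gng14, another G protein subunit, at 0.97 (0.97 with the group means subtracted), followed by PRKCQ, a protein kinase C on the habenula list, at 0.89, and tac3a was the fifth at 0.80. In the hypothalamus kiss1 was most like rap1gapl (0.84) and IRX1 (0.83). These libraries share tissue composition and depth, so the correlations describe the libraries and not a relation between the genes.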

How the data were processed

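The authors deposited a table of read counts per gene for 72 libraries, with no normalization of the counts. Per the submitters' processing notes, bcl2fastq 2.17.1.14, cutadapt, STAR 2.5 and DESeq2 were used. The sources used here name no counting tool, strandedness option, genome build or annotation, so no coordinates are printed, and reads of overlapping or near-identical genes could be split between them. All columns matched a sample label, and 0 were left over. The members and gene lists were chosen with earlier results of these data known.

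Counts were fitted in R 4.3.3 with edgeR 4.0.16 (TMM scaling, filterByExpr with a minimum count of 10 and a minimum total of 15, robust quasi-likelihood fit), separately for the 24 libraries of each tissue and over the 48 adult libraries for the comparison of regions. A prior count of 2 was used for log2 CPM and was not set for the fit. The SE of an edgeR log2 fold change is its absolute value divided by the square root of the quasi-likelihood F. P-values were adjusted by Benjamini-Hochberg over all genes of a comparison, with a threshold of 0.05; 16 comparisons were made, 5 per tissue and the regions. CPM are counts-per-million of the TMM-scaled library size, and mean ± SD are over 6 libraries. The steps were tested on simulated data. Members have no p-value. The rule for named list genes took up to 20 per comparison of those past the threshold in the reproductive, RFamide and tachykinin lists, lowest p first; the text prints only some of these, mainly calls that held whichever single library was left out, a choice made after their values were seen. The genes most like a member were the 5 with the highest correlation of log2 CPM among genes whose log2 CPM averaged 1 or more. Libraries held 10188323 to 19857970 counts in larval heads, 13243434 to 22823560 in hypothalamus and 14210173 to 20960691 in telencephalon; intervals cover counting error only. No pair of libraries agreed within counting noise (lowest ratio to counting variance 5.13 over 180 pairs). P-values measure the spread between pools, which may be technical. Same-numbered libraries did not deviate together throughout: in 0 of 6 pairs of groups in each tissue were all correlations above 0.1. Single correlations ran from -0.594 to 0.566, and a rule that asks for all of them cannot show that same-numbered libraries are independent. Alternatives were DESeq2 1.42.0, RLE scaling, no filter, a replicate block, fits to the 2 groups alone, adult libraries numbered 1 to 24 or 25 to 48 only, and fits that left out libraries. Values of some list genes are not reported here.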

Additional observations from a re-analysis of the deposited data

Results flagged for a closer look

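In 7 of 36 sets of 6 libraries (3 genes in 12 groups) the highest or lowest library lay far from the other 5 by Dixon's criterion. For normally distributed values chance gives about 1 in 20, or 1.8. CPM at or near 0 are not so distributed, so 7 and 1.8 cannot be compared directly. In the hypothalamus of stressed fluoxetine fish replicate 4 held 9.89 CPM of kiss1, and the others at most 0.380 CPM. In the hypothalamus of stressed vehicle fish replicate 4 held 6.92 CPM of npvf, and the others 14.96 to 18.04 CPM. In larval heads of stressed fluoxetine fish replicate 3 held 4.13 CPM of npvf, and the others 6.51 to 7.91 CPM. In larval heads of stressed vehicle fish replicate 6 held 13.7 CPM of tac3a, and the others 17.1 to 18.7 CPM.

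The other 3 were telencephalon libraries in groups where npvf was at or near 0. Stressed fluoxetine replicate 3 held 1.55 CPM, stressed vehicle replicate 4 held 0.156 CPM and unstressed vehicle replicate 6 held 0.157 CPM.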

How the results depend on the processing

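The 42 log2 fold changes of the members each moved by less than the pooled within-group SD of log2 CPM of that gene. This held with DESeq2, RLE scaling, no filter on low counts and a replicate block. That SD is a spread between libraries and not the error of a fold change. For tac3a with stress in vehicle larvae the replicate block gave 0.90. In the hypothalamus kiss1 depended on which libraries were used. Leaving out a library gave -4.64 to -0.23 for fluoxetine in stressed fish, -2.25 to 1.97 for stress in fluoxetine fish and -6.69 to -2.28 for the difference of the stress responses. Libraries 1 to 24 alone gave -4.34, -1.61 and -8.12 for these 3 and 6.51 for stress in vehicle fish, and libraries 25 to 48 gave -0.43 for the difference of the stress responses. For tac3a in the telencephalon, libraries 1 to 24 and 25 to 48 gave 0.054 and -0.63 for fluoxetine in unstressed fish and -0.011 and 0.68 for the difference of the stress responses. The causes were not tested, except that these subsets hold fewer libraries.

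The counts of reproductive genes that passed changed more. In the hypothalamus, libraries 1 to 24 and 25 to 48 gave 0 and 0 for fluoxetine in stressed fish, 1 and 0 for fluoxetine in unstressed fish, 2 and 8 for stress with vehicle and 1 and 0 for stress with fluoxetine. In the last comparison DESeq2 gave 7, the number range as a term 7, the replicate block 10 and the fit without stressed vehicle replicates 1 and 4, chosen after seeing the data, 5. In the telencephalon, libraries 1 to 24 and 25 to 48 gave 0 and 0 for both fluoxetine comparisons, 4 and 7 for stress with vehicle and 3 and 5 for stress with fluoxetine. DESeq2 gave 2, 5 and 1 there for fluoxetine in stressed fish, fluoxetine in unstressed fish and the difference of the stress responses, and the replicate block 3 and 5 for the first 2. In larval heads DESeq2 gave 1, 4 and 3 for fluoxetine in stressed fish, fluoxetine in unstressed fish and stress with fluoxetine. The 2 groups alone gave 3, 0 and 3 there and 1 for stress with vehicle, and the fit without unstressed vehicle replicates 1 to 3 gave 3, 1, 4 and 1. For fluoxetine in unstressed larvae no filter gave 0 and the replicate block 0, and for stress with vehicle the block gave 5. Leaving out a library gave 0 to 1, 0 to 8, 5 to 11 and 0 to 1 in larval heads for fluoxetine in stressed fish, fluoxetine in unstressed fish, stress with vehicle and stress with fluoxetine. The same ranges were 0 to 1, 5 to 15, 9 to 19 and 3 to 6 in the hypothalamus, and 1 to 3, 1 to 7, 10 to 15 and 8 to 13 in the telencephalon, with 0 to 2 and 0 to 1 for the difference of the stress responses. Counts of kiss1 in hypothalamus libraries ran from 0 to 202 with a median of 4, and those of npvf in the telencephalon from 0 to 33. Low counts limit what can be said of both, and the part of library depth was not tested.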
